A study of Homo sapiens with 2 samples.

Results

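The narrow H3K4me3 regions of high fold are short, isolated stretches of the wild-type peak list of HEC-1-B, a cell line established from a human endometrial adenocarcinoma. They were defined as wild-type regions on chromosomes 1 to 22 that were at most 500 bp wide, had an authors' fold of at least 8 and had no other wild-type region within 1000 bp. The rule selected 710 of 19058 regions on these chromosomes, or 3.73%. Width alone passed 4929 regions and fold alone passed 13314, and 1041 passed both, of which 331 had a neighbour within 1000 bp. A fold of 8 was not rare in this list: the median fold of all regions was 11.5, and the median narrow region stood at the 50.2 percentile of the list by fold. "High fold" therefore means at or above 8 and not the upper end of the list.

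The series used chromatin immunoprecipitation followed by sequencing (ChIP-seq) to map H3K4me3 in 2 libraries, 1 from wild-type HEC-1-B cells and 1 from ZNF143 knockout (ZNF143KO) HEC-1-B cells. Both groups were grown in the same medium and immunoprecipitated with the same antibody, per the labels. Whether the knockout line is a single clone is not given in the sources used here. Each library came with its own peak list, so no difference between genotypes below has a replicate check and none was tested.

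H3K4me3 is laid down on the tail of histone H3 by the SET1 and MLL methyltransferase complexes and is densest around the start sites of active genes, often over CpG islands. At a strong promoter the mark covers several nucleosomes on either side of a nucleosome-depleted start site, so its ChIP-seq regions are usually much longer than 1 fragment. Shorter stretches of the mark occur at weak promoters and some enhancers. ZNF143 is a zinc-finger transcription factor that binds at many promoters and has been linked to CTCF and chromatin loops. The comparison asks what happened to these short regions when ZNF143 was lost.

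The fold, the −log10 p and the −log10 q of each region are the authors' own values and were used here to describe, rank and filter regions within each list. The fold was taken to compare the stack of fragments at a region's highest point, the summit, with a local background rate, each with 1 added, a form that the sources used here do not state. From the fold and the −log10 p column, the number of fragments stacked at the summit (the pileup) and the local rate could be solved for every region of both lists. The lowest rate in the knockout library, 3.25 fragments per base, was 2.31 times the lowest rate in the wild-type library, 1.40, which puts the knockout library at a greater depth as far as this inferred measure goes. On chromosomes 1 to 22 the weakest called summit had 7 wild-type and 11 knockout fragments.

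The narrow regions rested on few fragments. Their width ran from 163 to 500 bp with a median of 363.5 bp, and their fold from 8.03 to 45.4 with a median of 11.5. The −log10 p column had a median of 27.3 (quartiles 19.6 and 45.2), and the −log10 q column a median of 24.8 (quartiles 17.2 and 42.6). The summit pileup ran from 19 to 593 fragments with a median of 29 (quartiles 22 and 44.75), and 56 regions sat at the minimum of 19. A pileup of 29 has an exact Poisson 95% interval of 19.4 to 41.6, which covers counting error only. By pileup the median narrow region stood at the 17.6 percentile of the wild-type list, far below its place by fold.

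Wider regions under the same fold limit served as the comparison: 9546 wild-type regions over 500 bp with a fold of at least 8 and the same isolation. Their median width was 1173 bp and their median pileup 297 fragments. Their median fold was 14.6, against 11.5 in narrow regions, so only comparisons within a fold band are at like fold. In the fold band from 8 to 10, the 252 narrow regions had a median pileup of 21 and the 937 wider regions one of 209, or 9.95 times as many. From 10 to 15 the medians were 29 and 291 fragments, from 15 to 20 they were 44 and 311, and from 20 upward they were 81 and 322, or 3.98 times as many. In each band the same fold thus stood for fewer fragments in narrow regions, and the gap was smaller at the high end.

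The recovered local rate was lower around narrow regions. At a given fold the assumed form ties the rate to the pileup. Within a fold band this is therefore the same difference as that in pileup, not a further one. It was at the lowest value of the library in 419 of the 710 narrow regions (59.0%) and in 167 of the 9546 wider ones (1.75%). In the band from 8 to 10 these shares were 85.3% and 10.5%. The median local rate was 1.40 fragments per base around narrow regions and 18.1 around wider ones. At the lowest rate the fold can take only stepped values, because the pileup is a whole number: 18 fragments gave a fold of 7.90 and fell outside the rule, and 19 gave 8.32 and fell inside. There were 66 isolated narrow regions at the first step and 54 at the second. The limit of 8 was therefore, for most members, a limit of 19 fragments.

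**Figure D1:**
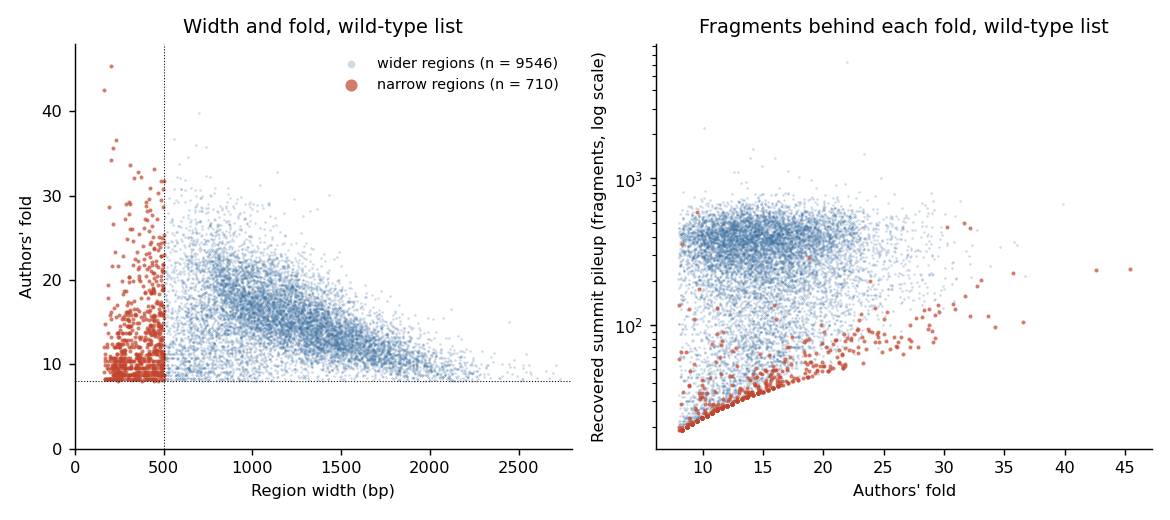
Left, region width (bp) against the authors' fold for 710 narrow (red) and 9546 wider (blue) isolated wild-type regions, with dotted lines at 500 bp and a fold of 8. Right, the same regions by fold and recovered summit pileup on a log axis: narrow regions lie along the lower edge, with a median of 29 fragments against 297, and that edge is the fold at the lowest local rate.

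Each limit of the rule had regions close to it on both sides. The lowest fold inside the rule was 8.03, at chr10:42360555-42360929, and the highest outside was 7.95, at chr20:26318194-26318574. The widest members were 500 bp wide, such as chr14:89506904-89507403 with a pileup of 20, and the narrowest excluded regions were 501 bp wide, such as chr5:1008920-1009420 with a pileup of 28. The least isolated members had a neighbour at 1033 bp, such as chr1:120904688-120905177, and the nearest excluded region, chr19:54984078-54984508, had one at 948 bp. All 6 of these regions overlapped a knockout region. Positions here and below are hg19, counted from 1, and refer to the wild-type region unless stated.

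The 5 members of highest fold were between 165 and 228 bp wide, while the highest fold of a wider region was 39.9. At chr22:40271300-40271504 a region of 205 bp had a fold of 45.4 and a pileup of 241 fragments. At chr3:196625614-196625778 a region of 165 bp had a fold of 42.6 and a pileup of 237. A region of 228 bp at chr4:189659529-189659756 had a fold of 36.6 with 104 fragments. These 3 were followed by chr10:42409197-42409411 (215 bp, fold 35.7, 227 fragments) and chr4:46726417-46726616 (200 bp, fold 34.3, 97 fragments). The shortest wild-type region of all on chromosomes 1 to 22 was 162 bp wide. By pileup they stood only between the 33.8 and the 54.6 percentile of the list.

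The members with the most fragments were of another kind. At chr11:51586761-51587069 the pileup was 593 fragments, but the local rate was 61.3 fragments per base, so the fold was only 9.53. At chr19:45504698-45505197, 496 fragments over a rate of 14.7 gave a fold of 31.7. At chr9:139257778-139258245, 466 fragments over a rate of 14.4 gave a fold of 30.3. The last 2 were close to the upper width limit, at 500 and 468 bp. At the other end, chr3:185677785-185678253, chr17:42620720-42621207 and chr1:7177851-7178185 had 19 fragments each and folds of 8.05, 8.16 and 8.32.

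Narrow regions occurred on each of the 22 chromosomes, from 8 on chromosome 18 to 71 on chromosome 1. As a share of all wild-type regions of a chromosome they ranged from 2.80% on chromosome 18 (exact Clopper-Pearson 95% interval 1.22 to 5.44%, 8 of 286) to 6.13% on chromosome 21 (3.31 to 10.3%, 13 of 212). Chromosome 3, with 57 of 1115 (5.11%, interval 3.89 to 6.57%), was the only chromosome whose interval lay wholly above the share over all of them, 3.73%. With 22 chromosomes compared, 1 such interval gives no ground to set it apart.

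**Figure D2:**
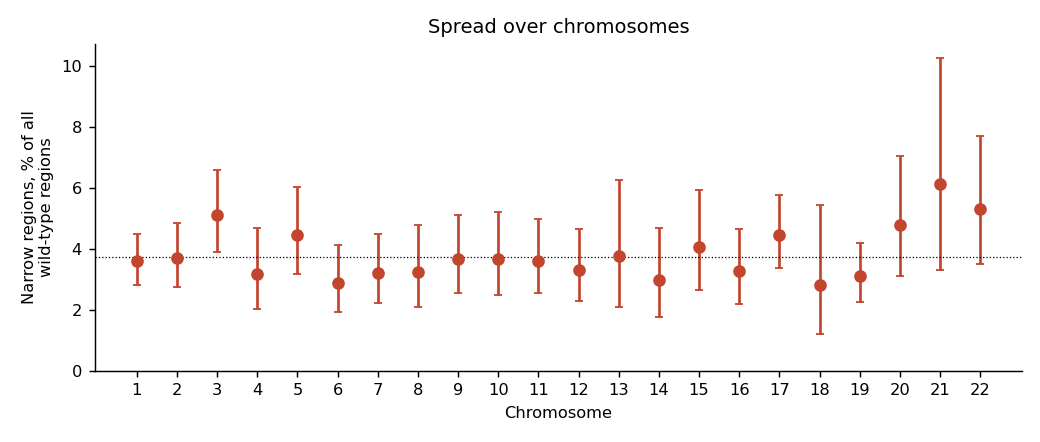
Narrow regions as a percentage of all wild-type regions on each chromosome, with exact 95% binomial intervals that cover counting error only; the dotted line is the share over all 22 chromosomes, 3.73%. The intervals of 21 chromosomes include the line and that of chromosome 3 lies above it.

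The members were scattered. The median distance to the next member was 844082.5 bp, and 433 of the 553 megabase bins that held a member held 1. Another member lay within 100 kb of 100 members and within 10 kb of 28. The median distance to the nearest wild-type region of any kind was 29149 bp for narrow and 34004 bp for wider regions, and 148 narrow regions (20.8%) lay over 100 kb from any region, against 18.5% of the wider ones. The fullest bins held 5 members each, on chromosome 5 from 140000001 to 141000000 and on chromosome 19 from 1000001 to 2000000, and were picked after their counts were seen. In the chromosome 5 bin the wild-type pileups were 42, 28, 22, 30 and 94 fragments from the lowest to the highest position, and the knockout pileups were 85, 72, 47, 64 and 171. All 5 were found in the knockout list and each was wider there. In the chromosome 19 bin the pileups were 21, 24, 65, 25 and 26 for the wild type and 32, 65, 108, 32 and 70 for the knockout, also with all 5 found and wider. Over all members 93.9% were found. The knockout region was wider in 79.5% of their pairs and in 82.1% of all pairs, so these counts do not set the bins apart.

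Above 200 bp, fewer summits lay near the middle in each wider class. In members of at most 200 bp, 17 of 32 (53.1%) had the summit within 25 bp of the centre. In members of 201 to 300 bp, 152 of 198 (76.8%) had the summit within 25 bp of the centre. In members of 301 to 400 bp it was 78 of 181 (43.1%), and in those of 401 to 500 bp 30 of 299 (10.0%). In this widest class 116 summits lay on the lower side of the centre, at a median of 147.5 bp from the start, and 153 on the upper side, at a median of 152 bp from the end. The distance from the summit to the nearer end had a median of 111.5, 143 and 152 bp in these 3 classes. In members of at most 200 bp it was 66 bp. A summit about 150 bp from one end was thus common to members over 300 bp, and the wider ones extended further on the other side.

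Summit positions recurred in the knockout list. Over the 667 members that could be paired, the wild-type and knockout summits lay a median of 20 bp apart (quartiles 9 and 38 bp). Of these pairs, 550 (82.5%) were within 50 bp, against 78.7% of all pairs. In wider pairs the median was 16 bp, but 13.0% lay over 100 bp apart, against 4.80% (32) of the narrow pairs, where the regions leave less room to differ. Among 262 pairs over 400 bp wide with an off-centre wild-type summit, the knockout summit lay on the same side of the wild-type centre in 240 (91.6%). The wild-type summit lay inside the knockout region in all 667 pairs, and in 99.4% of the pairs of the whole list. Both shares were near the background, so a recurring summit was common to the whole list.

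**Figure D3:**
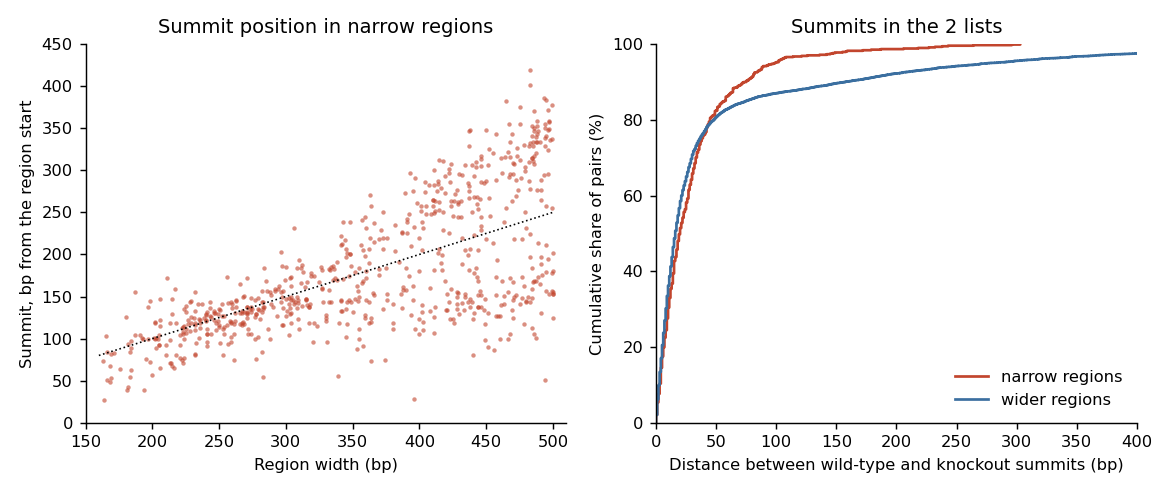
Left, distance of the summit from the region start (bp) against region width (bp) for the 710 narrow regions, with the dotted line marking the centre; above about 300 bp the points part into a lower and an upper branch. Right, cumulative share of pairs by distance between the wild-type and knockout summits (bp), for 667 narrow (red) and 9451 wider (blue) pairs, with medians of 20 and 16 bp.

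Of the 710 narrow regions, 667 overlapped a knockout region by at least 1 bp (93.9%, 95% interval 91.9 to 95.6%), and each had exactly 1 partner that overlapped no other wild-type region. The other 43 (6.06%) had no knockout region within 1000 bp either. Over all wild-type regions 5.56% were not found, so the narrow regions as a whole stood close to the background. Against wider regions under the same fold limit they did not: 19 of 9546 wider regions were not found (99.8% found, interval 99.7 to 99.9%).

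The share found rose with fold and with fragments. In the fold bands from 8 to 10, 10 to 15, 15 to 20 and 20 upward, 91.3%, 93.8%, 97.1% and 97.9% of narrow regions were found, against 99.3%, 99.8%, 99.9% and 99.8% of wider regions. At an equal pileup of 19 to 24 fragments, 233 of 258 narrow regions were found (90.3%, interval 86.0 to 93.6%) and 207 of 213 wider ones (97.2%, 94.0 to 98.96%). These intervals did not overlap. The intervals here and below cover only the counting of regions in 1 library per genotype. Their overlap, or the lack of it, is therefore not a test. From 25 to 34 fragments the shares were 94.0% (89.6 to 97.0%) and 98.3% (96.1 to 99.5%), and from 35 to 59 fragments 96.7% (92.4 to 98.9%) and 99.5% (98.5 to 99.9%), with overlapping intervals. From 60 fragments upward they were 98.3% (94.0 to 99.8%) and 99.9% (99.86 to 99.98%), and these intervals did not overlap. That last band has no upper limit and held 118 narrow and 8443 wider regions, so the pileup was not matched in it. The share found was thus lower in narrow than in wider regions in all 4 bands. What part the pileup, the width or the local rate has in it was not tested.

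**Figure D4:**
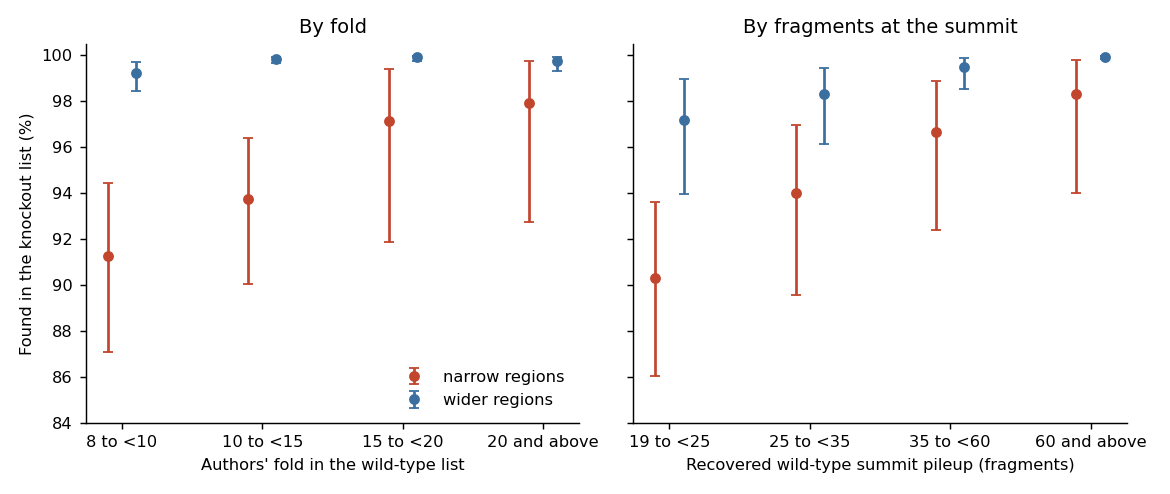
Share of wild-type regions that overlap a knockout region (%), with exact 95% binomial intervals, for narrow (red) and wider (blue) isolated regions by fold (left) and by recovered summit pileup (right); the axis starts at 84%. Narrow regions lie below wider ones in each band, from 90.3% against 97.2% at 19 to 24 fragments to 98.3% against 99.9% at 60 and above.

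Width within the members went the same way. The share found was 78.1% (25 of 32, interval 60.03 to 90.7%) at widths of at most 200 bp, 90.9% (86.0 to 94.5%) from 201 to 300 bp, 94.5% (90.1 to 97.3%) from 301 to 400 bp and 97.3% (94.8 to 98.8%) from 401 to 500 bp. The median pileup of these classes was 24.5, 25, 29 and 34 fragments. Of 836 wider regions up to 700 bp, 98.7% were found. Isolated narrow regions with a fold from 6 to 8 were found in 78.9% of cases (444 of 563), and narrow regions of high fold with a neighbour within 1000 bp in 330 of 331.

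The 43 members not found had a median pileup of 24 fragments and a median width of 259 bp, against 29 fragments and 370 bp for those found. They were spread over 20 chromosomes, and 36 of them lay at the lowest local rate, against 419 of all 710 members (59.0%). A pileup of at most 45 was found in 41 of the 43, while the upper quartile over all members was 44.75. The exceptions were chr3:196625614-196625778, the second highest fold of all members, with 237 fragments (exact Poisson interval 208 to 269), and chr7:148659938-148660375, with a fold of 20.8 and 74 fragments (58.1 to 92.9). The next by fold were chr19:49250212-49250523 with a fold of 16.5 and 40 fragments, chr12:48690502-48690915 with a fold of 16.2 and 42 fragments, and chr16:57728671-57729013 with a fold of 15.8 and 37 fragments. The median ratio of knockout to wild-type pileup over all 15888 one-to-one pairs was 1.86. At that ratio the weakest of the 43, with 19 fragments, would correspond to 35.3 knockout fragments. The lowest called knockout pileup was 11. The ratio comes only from regions found in both lists, and in narrow pairs it had a median of 1.67 and a 5 percentile of 0.85. Why the 43 were not found was not tested.

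Among the 667 pairs, the knockout region was wider in 530 (79.5%), against 82.1% of all pairs, a share near the background. The relative widening was larger: the median width ratio was 1.20 (quartiles 1.02 and 1.54) in narrow pairs and 1.06 (1.019 and 1.122) in wider pairs. It was between 1.16 and 1.23 in the 4 fold bands of the narrow pairs and between 1.04 and 1.09 in those of the wider pairs. In base pairs the gain was alike, with a median of 72 bp in narrow and 70 bp in wider pairs, while the rule itself set the smaller starting width. A knockout region at least 1.5 times as wide occurred in 179 narrow pairs (26.8%), against 7.18% of all pairs, and the quartiles of the gain were further apart, 8 and 203 bp against 23 and 136 bp.

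Single members widened more. The region at chr17:7184949-7185219 was 271 bp wide for the wild type and 1123 bp for the knockout, with pileups of 38 and 113 fragments. The region at chr17:81036876-81037371 went from 496 to 1817 bp, with 46 and 167 fragments, while its fold was 14.9 and 8.60. The region at chr3:18486449-18486719 went from 271 to 956 bp, with 70 and 158 fragments and folds of 22.9 and 20.1. Relative to the ratio of all pairs, the log2 pileup ratio of these 3 was 0.68 (95% counting interval 0.14 to 1.25), 0.97 (0.49 to 1.47) and 0.28 (−0.13 to 0.71).

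The shortest regions of very high fold kept their outline. Of 14 members with a fold of at least 20 and a width of at most 300 bp, 13 were found, and in 10 of those 13 both ends lay within 10 bp of the wild-type ends. Their median width ratio was 1.03. Of 82 pairs with such a fold and a width over 300 bp, 9 matched as closely, and the median ratio was 1.21. At chr22:40271300-40271504 the knockout region was also 205 bp wide and had a fold of 43.3 and 355 fragments. At chr10:42409197-42409411 it was 218 bp wide with a fold of 37.1 and 617 fragments, a log2 pileup ratio of 0.55 (0.33 to 0.78) relative to all pairs. The regions at chr4:189659529-189659756 and chr4:46726417-46726616 had knockout folds of 38.8 and 38.0 with 168 and 174 fragments. These 4 of the 5 members of highest fold thus ranked in the uppermost percentile of both lists, and the fifth, on chromosome 3, had no knockout region. The grouping by width and fold was chosen after the values were seen.

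Of the 667 knockout partners, 256 (38.4%) met the same rule in their own list. A further 278 partners were over 500 bp wide, 155 had a fold under 8 and 21 had a neighbour within 1000 bp, with some in more than 1 of these groups. Most members of 401 to 500 bp crossed the width limit (193 of 291, 66.3%), and 27 of 180 (15%) did from 201 to 300 bp. Of the wider pairs, 94.3% met the wider rule again. The rule applied to the knockout list chose 448 regions, fewer than the 710 of the wild-type list. Of these, 391 were found in the wild-type list (87.3%, interval 83.8 to 90.2%), against 98.8% of the 10371 wider knockout regions chosen in the same way. The share over all knockout regions is not given here, so the 87.3% has no background of the whole list beside it.

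The fold of narrow regions varied more between the lists than that of wider regions. No scaling from one list to the other is stated, so each fold was ranked among the regions of chromosomes 1 to 22 of its own list and the percentiles were subtracted, knockout minus wild type. The median shift of the 667 narrow pairs was −1.89 points with quartiles of −14.0 and 9.13, and that of the 9451 wider pairs was −0.35 with quartiles of −4.47 and 3.02. The shift was within 10 points in 282 narrow pairs (42.3%) and in 83.7% of the wider pairs. The centre of both sets was thus near 0, and the spread was larger in narrow pairs, with interquartile ranges of 23.2 and 7.49 points.

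Large moves went both ways. The percentile fell by over 25 points in 64 narrow pairs (9.60%), against 1.38% of all pairs. It was higher by over 25 points in 58 (8.70%), against 1.99% of all pairs. By fold band the interquartile range of the narrow pairs was 23.1, 32.8, 27.2 and 3.36 points, and that of the wider pairs was 8.06, 9.04, 8.02 and 3.07. A percentile has little room to move at the top of a list, which limits the last band. The log2 pileup ratio, which has no such ceiling, had an interquartile range of 0.61 in narrow and 0.35 in wider pairs at a fold of 20 and above, so narrow pairs were the more spread there too.

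By fold percentile the spread was more alike at equal pileup. With 19 to 24 wild-type fragments the interquartile range of the shift was 25.7 points in 233 narrow pairs and 26.8 points in 206 wider pairs. From 25 to 34 fragments it was 32.8 and 23.3 points, from 35 to 59 fragments 26.1 and 18.8, and from 60 fragments upward 6.11 and 6.71. By the log2 pileup ratio the interquartile range was 0.92, 0.84, 0.88 and 0.55 in narrow pairs and 1.14, 0.89, 0.88 and 0.30 in wider pairs. Which set had the larger spread thus depended on the measure and the band. From 60 fragments upward the pileup ratio was the more spread in narrow pairs. That band has no upper limit and held 116 narrow and 8375 wider pairs, so the pileup was not matched in it. The width ratio was higher in narrow pairs in all 4 bands, at 1.20, 1.19, 1.26 and 1.19 against 1.09, 1.11, 1.101 and 1.06. The rule set a smaller starting width for narrow pairs in every band. This ratio therefore cannot tell a larger gain in width from a smaller starting width.

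The summit pileup was 1.67 times as high in the knockout list in the median narrow pair and 1.86 times in the median pair of the whole list. Relative to that median the narrow pairs had a log2 ratio of −0.16, with 399 of 667 (59.8%) below 0, and the wider pairs had one of −0.00, with 50.5% below 0. Centred within each chromosome the medians were −0.14 and −0.00. The pileup ratio was at most 0.5 times the median of all pairs in 47 narrow pairs (7.05%, against 1.99% of all pairs) and at least 2 times in 35 (5.25%, against 2.5%). At 19 fragments a counting interval runs from 11.4 to 29.7, so single ratios near the lower limit are loose, and members were chosen on a wild-type value that had to reach 8.

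Choosing the regions from the other list turned the sign. Among the 391 pairs chosen by the same rule in the knockout list, the median shift was 3.57 points (quartiles −7.46 and 16.5) and the median log2 pileup ratio was 0.06. The direction of the median shift thus followed the list in which the regions were chosen and is not read as a direction between the genotypes. The width ratio kept its direction, with a median of 1.11 and 73.7% of knockout regions wider. Wider regions chosen in the knockout list had a median of 1.06, with 85.9% wider. Over all pairs 82.1% were wider in the knockout list, so this direction is not particular to narrow regions.

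**Figure D5:**
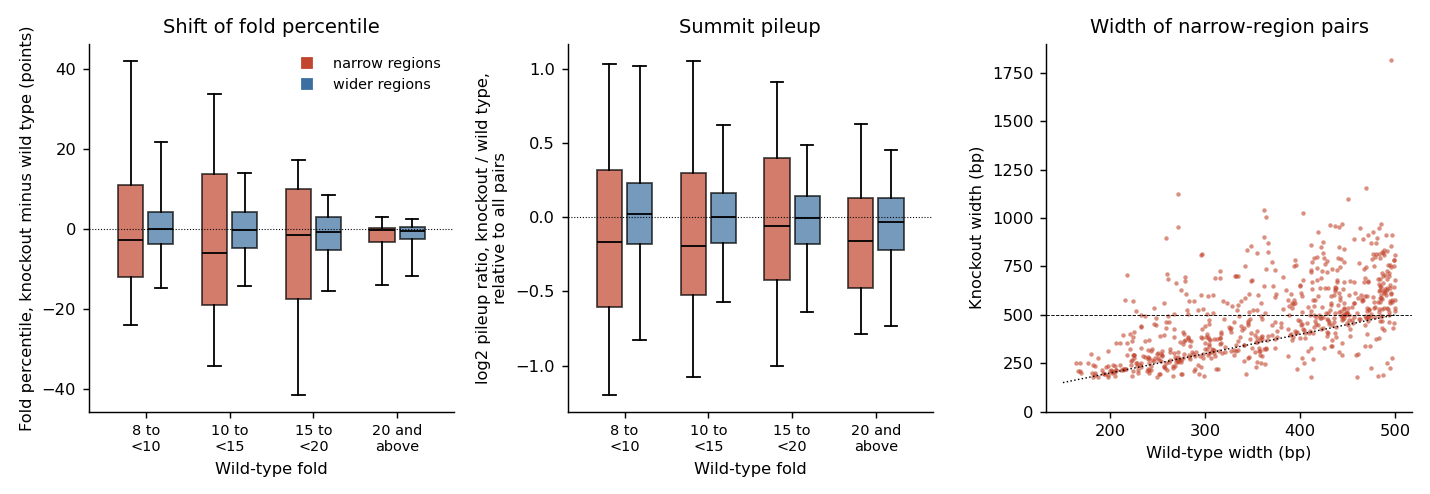
By wild-type fold, the shift of the fold percentile (left, points, knockout minus wild type) and the centred log2 pileup ratio (middle) for narrow (red) and wider (blue) pairs, as medians, quartiles and whiskers to the 5 and 95 percentiles; right, knockout against wild-type width (bp) of the 667 narrow pairs, with a dotted line at equal width and a dashed one at 500 bp. Below a fold of 20 the boxes of narrow pairs are taller than those of wider pairs in both measures, and 278 knockout partners lie above the dashed line.

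The 3 largest rises in fold percentile could only come from members of low wild-type fold, since a percentile ends at the top of the list. At chr11:11268111-11268462 the pileup was 21 wild-type and 188 knockout fragments, and the fold 9.15 and 26.6. Relative to all pairs its log2 pileup ratio was 2.27 (95% counting interval 1.62 to 3.00), while its width was nearly unchanged at 352 and 395 bp. At chr10:118429453-118429800 the pileups were 21 and 137 and the folds 9.15 and 20.9, a relative log2 ratio of 1.81 (1.14 to 2.55), and the width was 348 and 858 bp. At chr2:7057558-7057997 the pileups were 21 and 289 and the folds 9.15 and 20.5, a relative log2 ratio of 2.89 (2.25 to 3.60), and the width was 440 and 795 bp. Each of these intervals lies above 0, but they cover counting error alone and the regions were picked from 667 for their size of change.

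The members that dropped furthest differed in depth. At chr19:44711650-44712146 the pileup was 288 wild-type and 63 knockout fragments, and the fold was 18.8 and 5.78. Its relative log2 ratio was −3.09 (−3.50 to −2.69), and the region stayed of like width at 497 and 576 bp. At chr4:185264701-185265146 the pileups were 44 and 26 and the folds 18.7 and 6.35, a relative log2 ratio of −1.65 (−2.41 to −0.92). At chr1:247611175-247611534 the pileups were 68 and 38 and the folds 25.5 and 9.18, a relative log2 ratio of −1.73 (−2.34 to −1.14), and the width was 360 and 285 bp. All 3 had fewer fragments in the knockout list than in the wild-type list before any scaling.

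The members named for most and fewest fragments also had partners in the knockout list. At chr11:51586761-51587069 the knockout pileup was 1598 fragments and the fold 8.92, close to the wild-type fold. Its relative log2 pileup ratio was 0.54 (0.40 to 0.68). At chr19:45504698-45505197 and chr9:139257778-139258245 the knockout pileups were 880 and 820 and the folds 29.5 and 31.1. The 3 members named at the lower limit of 19 fragments were all found, with 59, 53 and 33 knockout fragments and folds of 8.65, 10.8 and 8.0. Their relative log2 ratios of 0.74, 0.59 and −0.10 had counting intervals that include 0.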

How the data were processed

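H3K4me3 ChIP-seq of HEC-1-B cells gave 1 wild-type and 1 ZNF143 knockout library, each with a peak list of 10 columns. The submitters' processing notes name Bowtie2, SAMtools 1.12, MACS2 and deepTools and the builds GRCh37 and hg19, with no role or order. Region names differ in prefix between the lists, per the deposited files, so the lists appear to have been called per library. A control library is not given in the sources used here.

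Column 7 of the deposited lists was read as a fold. It was assumed to be the ratio of (pileup + 1) to (local rate + 1), since the caller's settings are not given in the sources used here, and every pileup and rate rests on this and on the Poisson form of the p. Columns 8 and 9 of the deposited lists were read as −log10 p and −log10 q, and column 10 as the summit offset. The deposited score in column 5 was 10 times column 9 to within 1 and was not used. For each region, a whole-number pileup and a rate were solved from columns 7 and 8, with the p as a Poisson upper tail. Every region had a solution, with relative errors of at most 1.76e-05 (wild type) and 2.67e-05 (knockout). The solution was checked on simulated data. Total read counts were not used here.

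The members were 710 of 19058 wild-type regions. A region was found if a knockout region overlapped it by 1 bp; values were compared in one-to-one pairs. Fold percentiles were taken within each list, and pileup ratios were divided by the median of all pairs. Shares have exact Clopper-Pearson and pileups exact Poisson 95% intervals, pileup ratios the matching conditional interval; all cover counting error only, and the fragments lack molecular identifiers as far as the sources say. With 1 library per genotype nothing was tested between genotypes.

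Regions named are the 5 members of highest fold, the 5 of highest fold with no knockout region, the 3 largest rises, falls and width ratios, the 3 highest and 3 lowest pileups, and the regions nearest each limit. The members, lists and measures were chosen with earlier results of these data known. Alternatives changed the limits on width, fold, isolation and overlap, the −log10 q minimum and the ranking; applying the rule to the knockout list and comparing at equal pileup were added after seeing the data. No genome or annotation of the files' build was used here, so no gene or sequence is given. Calculations used Python 3.11.15, numpy 2.4.6, pandas 2.3.3 and scipy 1.17.1, and matplotlib 3.10.9 drew the figures.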

Additional observations from a re-analysis of the deposited data

Results flagged for a closer look

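Regions of the wild-type list off chromosomes 1 to 22 were outside the rule and entered no comparison. The width, fold and isolation limits were met by 32 regions on chromosome X, 8 on chromosome Y, 38 on haplotype sequences of the hg19 build and 14 on unplaced or unlocalized sequences. These are counts of called regions, and there were no control samples to set them against. The median pileup of these regions was 58, 29.5, 27.5 and 42 fragments, and the median fold 9.57, 9.55, 10.5 and 11.7. The same limits chose 18, 5, 22 and 15 regions in the knockout list. HEC-1-B comes from an endometrial adenocarcinoma, and how reads came to be placed on chromosome Y was not tested. The same holds for the haplotype sequences.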

How the results depend on the processing

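The number of narrow regions was 710, and it was 411 at a width limit of 400 bp, 1273 at a fold limit of 6, 458 at a fold limit of 10 and 448 with the rule applied to the knockout list. The share found, 93.9%, was 91.5% at 400 bp, 87.3% at a fold limit of 6, 95.8% without the isolation limit, 84.8% with a reciprocal overlap of 50% and 87.3% for the rule in the knockout list. The width ratio of 1.20 was 1.11 with that rule. The fold percentile shift of −1.89 points was −5.25 at 400 bp and −0.76 when regions were ranked by −log10 q. It changed sign to 0.54 when ranked by pileup and to 3.57 with the rule in the knockout list. The shift of the wider pairs, −0.35, changed sign to 0.32 by −log10 q, 0.75 by pileup and 0.0081 with the knockout rule. The summit distance of 20 bp was 17 bp at 400 bp and 25 bp at a fold limit of 6. The other 24 alternatives of these 5 results moved the value by less than its interval or spread, or by less than 1.5 times for the number. The causes of the changes were not tested. No paired analysis was possible because there was only 1 library of each genotype, so no replicate could be left out either. Pileups near 19 fragments limit what can be said of single regions.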
